A study of Homo sapiens with 8 samples.

Results

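MCF10A mammary epithelial cells cultured in stiff collagen were compared with the same cells cultured in a stiff interpenetrating network (IPN) of alginate and reconstituted basement membrane (rBM). The deposited table listed 25369 genes. Of these, 13073 had a value of 10 or more in at least 2 of the 4 stiff-gel libraries and were tested. MCF10A is a non-transformed, spontaneously immortalized human mammary epithelial line. RNA-seq was done on 8 libraries, 2 for each of 4 gels, after 7 days of 3D culture.

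Stiff col gels contained type I collagen (col-1) and no rBM. Stiff IPNs contained rBM and alginate, and their alginate was crosslinked with CaSO4. The soft gels were soft IPN, made of rBM and alginate that was not crosslinked with calcium, and soft col:rBM, made of rBM with col-1. Cells in every gel came from a single line, and each well had been precoated with gelled rBM. The presence of col-1, rBM, alginate and added calcium therefore all differed between the stiff gels, and their contributions cannot be told apart. The comparison asks what the kind of stiff matrix changes when both gels are stiff. Replicates 1 and 2 came from independent trials, and the difference was fitted with the trial as a block.

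Basement membrane is the sheet of laminin, type IV collagen and other proteins on which mammary epithelium normally rests, whereas col-1 is the main fibrillar protein of the stroma around it. Stratified epithelia such as epidermis, when they differentiate, switch on genes for a cornified envelope, a protein shell crosslinked by transglutaminases under the plasma membrane. They also make proteases that shed cells, keratins of stressed epithelium and antimicrobial proteins. Extracellular calcium is a well known inducer of this programme in cultured keratinocytes.

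In stiff col, the genes that fell included members of the squamous differentiation, kallikrein, antimicrobial, epithelial junction and interferon lists. The genes that rose included members of the extracellular matrix, matrix crosslinking and secreted signal lists. With limma and Benjamini-Hochberg adjustment, 331 of 13073 genes (2.53%) had an adjusted p under 0.05. Of these, 135 (1.03%) were higher in stiff col and 196 (1.50%) were lower. Of these genes, 100 rises and 124 falls belonged to no gene list. The shares over all genes tested, 1.03% higher and 1.50% lower, are the background for the called counts of every list below. The falls were the larger changes. Their median log2 difference (stiff col minus stiff IPN, on log2(value + 1)) was -1.80, against 1.25 for the rises and 0.002 for all genes tested. A difference of 2 or more on this scale was seen for 89 falls and 23 rises. All 331 differences had 1 sign in both trials, as did 7271 of the 13073 genes tested. In 278 of the 331 genes the stiff col libraries lay apart from the stiff IPN libraries (30.9% of all genes tested did so), which included 89 rises and 189 falls. The call itself favours genes whose trials agree and whose libraries lie apart. These counts are therefore a description and add no support to the calls. The filter touched the falls more than the rises, since 26 falls and 1 rise reached a value of 10 in only the higher gel.

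**Figure D1:**
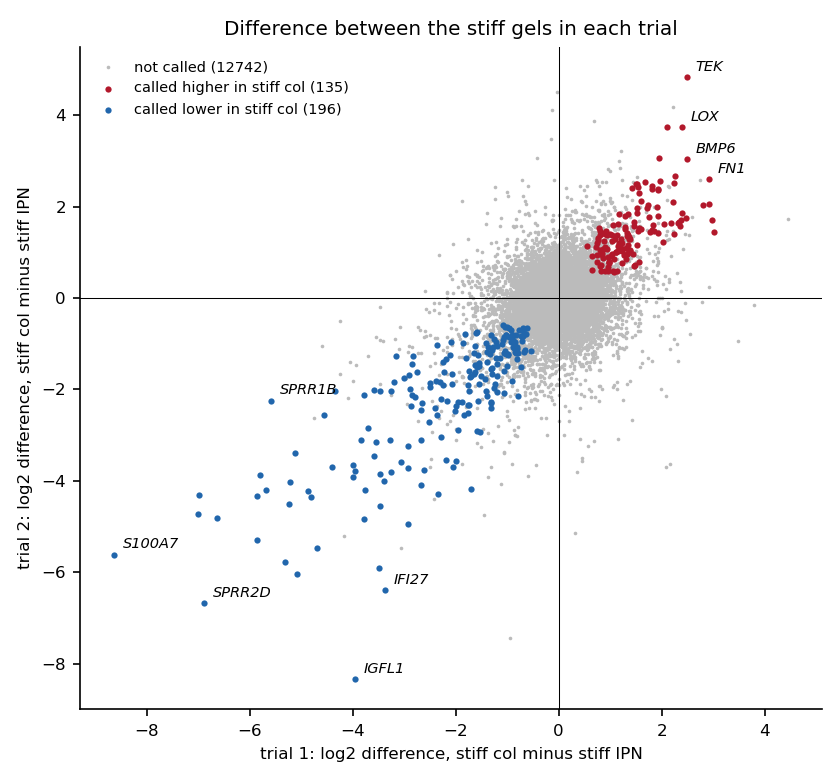
Each point is a tested gene, with its log2 difference (stiff col minus stiff IPN) in trial 1 on the x axis and in trial 2 on the y axis, and the colored points are the 135 genes called higher and the 196 called lower. The called genes lie in the quadrants where both trials had the same sign, which the call itself favours. The falls reach further from 0 than the rises.

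These calls depended on the block and on single libraries. Without the block no gene was called (lowest limma adjusted p = 0.12, and 834 genes at an unadjusted p under 0.05, against 2493, or 19.1% of genes, with it). Leaving out stiff col replicate 1 left 36 genes called and leaving out stiff col replicate 2 left 88. Without stiff IPN replicate 1 there were 2200 and without stiff IPN replicate 2 there were 706. FN1 and 30 falls were called whichever stiff library was left out. The falls were S100A7, S100A8, S100A9, SPRR1A, SPRR1B, SPRR2A, SPRR2D, SPINK6, KLK7, PI3, LCN2, SAA1, KRT6B, KRT17, CLDN1, MAL2, CEACAM6, MUC1, TSPAN1, FXYD3, A2ML1, SERPINB2, SERPINB13, HES2, ALDH1A3, RHOV, C15orf48, C1orf116, C1orf74 and ARHGEF37. FN1 was the only rise kept without stiff col replicate 1. Other genes named as rising or falling lost their call in at least 1 of these fits. Fitting the 4 stiff libraries alone with the block gave 291 calls, and 217 of them were among the 331. In that fit P4HA1, P4HA3, PLAU, ACTA2, EPGN, SPRY4, JUNB, IFIT2, ORAI2 and SLC8B1 were no longer called (limma adjusted p between 0.0534 and 0.184). The exact two-sided permutation test of a single gene, with the trials not paired, cannot go below p = 0.333 with 2 libraries against 2. Swaps within trials allow fewer arrangements, so a paired test has a higher floor.

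**Figure D2:**
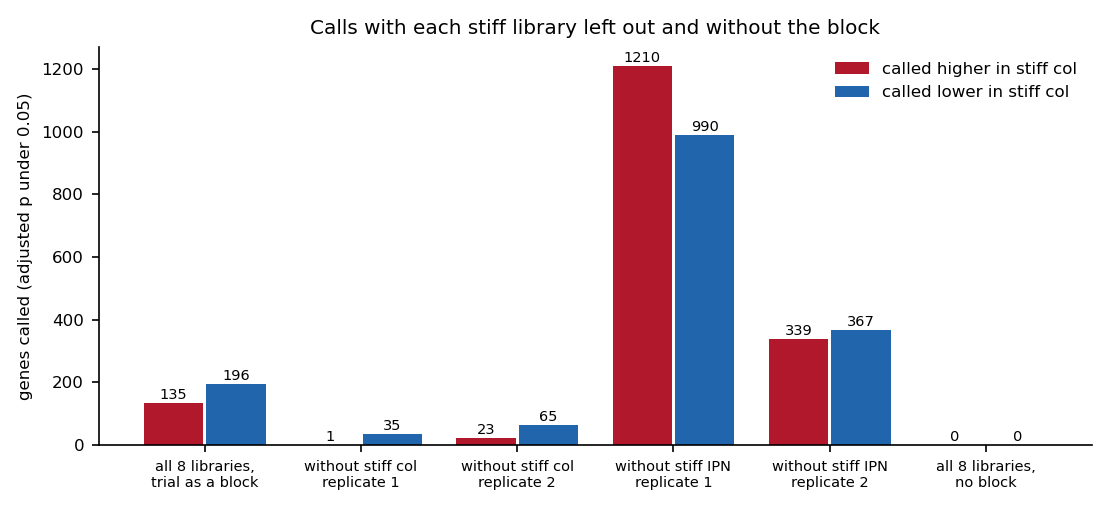
Bars give the number of genes called higher and lower in stiff col in the fit over all libraries, in the fits that each left out 1 stiff library, and in the fit without the block. Calls ranged from 36 without stiff col replicate 1 to 2200 without stiff IPN replicate 1, and were 0 without the block.

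The trials also differed from each other along the direction of the gel difference. Of the 135 rises, 125 (92.6%) were lower in replicate 2 than in replicate 1 of both stiff gels, against 31.0% of all genes tested. Of the 196 falls, 154 (78.6%) were higher in replicate 2 of both stiff gels, against 30.1% of all genes. In 46 rises and 7 falls the libraries overlapped between gels although both trials gave the same sign. The 4 stiff libraries held between 13065615 and 18587739 reads on genes, as estimated from the steps in the scaled values, and stiff IPN replicate 2 was the lowest. Mammary epithelial markers were expressed in both gels, and 16 of 17 passed the filter and were tested. Of these, 5 were called lower in stiff col and 0 higher, with CDH1, EPCAM, KRT14 and KRT17 among the falls. The differences of 12 were below 0, and the median was -0.75. KRT19 was at 1 or 2 in all 4 stiff libraries. Summed marker levels were 114310 and 141743 in stiff col and 163222 and 266371 in stiff IPN. A few keratins weighed heavily in these sums, with KRT17 alone at 71907 in stiff IPN replicate 2. Of the fibroblast, endothelial and leukocyte markers, 4, 3 and 5 of 10 were at or under 3 reads in all stiff libraries. COL1A2, THY1, PTPRC and TYROBP were among those at 0. Other markers of these lists were expressed. DCN had 1217 and 1085 in stiff col and 892 and 828 in stiff IPN, and COL1A1 had 242 and 214 against 168 and 265. POSTN had 100 and 82 against 47 and 28, and CD14 had 236 and 100 against 412 and 194. The fibroblast sums were 1840 and 1597 in stiff col and 1826 and 2043 in stiff IPN. The endothelial sums were 1013 and 791 against 532 and 517, and the leukocyte sums were 4611 and 1112 against 1652 and 539. The leukocyte sum was mostly CD68, a lysosomal protein that epithelial cells can also express. CD68 was called higher in stiff col by 1.72 on the log2 scale. Whether the epithelial or CD68 levels had a part in the results was not tested. In bulk RNA a change in the share of cells that express a gene cannot be told apart from a change in its RNA per cell.

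Tested genes of the cornified envelope and squamous differentiation were often lower in stiff col. Of 63 listed, 37 were too low in the stiff libraries to be tested. Among these were LOR, at 0 in all 4 stiff libraries, and FLG, at 0 and 2 in stiff col and 2 and 0 in stiff IPN. Of 26 tested, 12 were called lower in stiff col and 0 higher (1.50% and 1.03% of all genes tested), 24 had a difference below 0, and the list centred on -1.65 (trial 1, -1.65, and trial 2, -1.80). The small proline-rich proteins, which are crosslinked into the envelope, supplied 6 of the 12. SPRR2D had normalized counts of 0 and 7 in stiff col replicates 1 and 2 and 117 and 821 in stiff IPN. SPRR2A had 0 and 4 in stiff col and 57 and 196 in stiff IPN. Both were close to absent in stiff col and clearly present in each stiff IPN library, with log2 differences of -6.78 ± 0.67 (SE, adjusted p = 0.00671) and -5.58 ± 0.62 (adjusted p = 0.00792). The SPRR2 genes are near copies of each other, so reads can be misassigned among them, and multimapped reads had been removed. SPRR1A, at 6 and 37 against 242 and 397, fell by 4.25 ± 0.47 (adjusted p = 0.00812). SPRR1B, at 34 and 405 against 1671 and 1923, fell by 3.91 ± 0.65 (adjusted p = 0.0266). SPRR1B was thus detected well in stiff col replicate 2 and still lay below both stiff IPN libraries. IVL encodes involucrin, an early scaffold of the envelope. It had 36 and 196 in stiff col and 190 and 401 in stiff IPN, which overlap, and it fell within each trial (-1.70 ± 0.33, adjusted p = 0.0429).

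These genes lie in the epidermal differentiation complex, a stretch of chromosome 1 that holds envelope and S100 genes side by side. Between S100A10 and S100A1 (chr1:151955391-153604515, hg19) 22 genes were tested. Of these, 11 were called lower and 0 higher, 20 were below 0, and the median difference was -1.57. The called genes were IVL, SPRR1A, SPRR1B, SPRR2A, SPRR2D, SPRR2E, SPRR3, S100A3, S100A7, S100A8 and S100A9. Promoters of 5 envelope genes among them are printed as examples of upstream sequences that hold a short motif. They were chosen for holding it, so that sharing it is no finding, and S100A7, S100A8 and S100A9 had no match. Each is the 250 bases before the RefSeq start site, read 5′ to 3′ on the gene's strand (GRCh38.p14). They are SPRR1A at chr1:152983831-152984080 (plus strand), SPRR1B at chr1:153030953-153031202 (plus), SPRR2A at chr1:153057513-153057762 (minus), SPRR3 at chr1:153001499-153001748 (plus) and IVL at chr1:152908296-152908545 (plus). Capitals mark matches to TGANTCA, the core letters bound by AP-1 factors (JUN and FOS proteins).
SPRR1A: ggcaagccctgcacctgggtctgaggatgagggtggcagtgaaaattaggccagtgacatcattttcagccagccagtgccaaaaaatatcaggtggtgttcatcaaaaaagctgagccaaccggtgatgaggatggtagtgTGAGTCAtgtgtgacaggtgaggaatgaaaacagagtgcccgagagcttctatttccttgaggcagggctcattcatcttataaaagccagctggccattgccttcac
SPRR1B: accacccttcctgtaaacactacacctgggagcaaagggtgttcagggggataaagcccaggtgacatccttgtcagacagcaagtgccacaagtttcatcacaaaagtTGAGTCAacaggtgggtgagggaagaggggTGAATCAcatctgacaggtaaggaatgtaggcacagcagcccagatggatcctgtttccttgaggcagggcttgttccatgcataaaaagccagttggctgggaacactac
SPRR2A: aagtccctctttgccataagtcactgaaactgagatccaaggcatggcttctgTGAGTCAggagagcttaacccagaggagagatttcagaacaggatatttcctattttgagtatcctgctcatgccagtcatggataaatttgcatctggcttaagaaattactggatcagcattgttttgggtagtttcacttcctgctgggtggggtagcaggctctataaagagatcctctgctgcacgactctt
SPRR3: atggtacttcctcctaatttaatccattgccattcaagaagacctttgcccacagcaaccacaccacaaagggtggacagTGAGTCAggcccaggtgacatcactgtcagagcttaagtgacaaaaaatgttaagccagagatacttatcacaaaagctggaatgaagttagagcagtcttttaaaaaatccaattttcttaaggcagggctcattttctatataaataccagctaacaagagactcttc
IVL: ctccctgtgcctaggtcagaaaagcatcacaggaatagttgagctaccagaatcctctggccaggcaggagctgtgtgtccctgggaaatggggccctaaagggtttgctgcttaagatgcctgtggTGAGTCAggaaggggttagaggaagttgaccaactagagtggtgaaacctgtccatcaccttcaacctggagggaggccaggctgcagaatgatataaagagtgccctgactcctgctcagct

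The motif was searched on both strands, from 250 bases before to 50 after the start site. The first base of the match lay 108 bases before the start in SPRR1A, 141 and 111 before it in SPRR1B, 197 in SPRR2A, 170 in SPRR3 and 123 in IVL. A RefSeq promoter was at hand for 10214 of the 13073 genes tested and for 242 of the called genes. TGANTCA was present in 21 of 138 promoters of called falls (15.2%) and in 9 of 104 promoters of called rises (8.7%). It was present in 490 of 10214 promoters of tested genes (4.8%) and in 7.8% of all 27305 promoters. In the cornified list 9 of the 17 promoters of tested members held it, as did 6 of the 7 promoters of called members. Among called members of other lists that fell, 1 of 5 S100 promoters held it, and none of 3 kallikrein, 7 junction and 8 interferon-stimulated promoters did. The Grainyhead letters AACNGGTT were in 2.2% of promoters of falls and 0.0% of promoters of rises (1.4% of tested, 1.7% of all). The TEAD letters CATTCC were in 13.8% and 20.2% (10.6% of tested, and 3836 of all 27305). These matches describe letters in a window and say nothing of binding.

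Protease and protease-inhibitor genes of shedding epithelium fell with the envelope genes. Kallikreins are serine proteases that cut the junctions between cornified cells. Of the 4 tested, 3 were called lower in stiff col and all lie in the kallikrein cluster (KLK1 to KLK14, chr19:51322402-51587502, hg19). Summed over all 15 listed kallikreins, 11 of them not tested, normalized counts were 5 and 40 in stiff col and 338 and 871 in stiff IPN. No kallikrein could therefore reach 10 in stiff col replicate 1, and the tested members passed the filter mainly through stiff IPN. KLK7 was at 0 and 10 in stiff col and at 127 and 289 in stiff IPN (-5.86 ± 0.75, adjusted p = 0.0138). KLK10 was at 1 and 17 against 101 and 329 (-4.93 ± 0.78, adjusted p = 0.024). KLK5 had 3 estimated reads in the stiff col libraries together and 256 in the stiff IPN libraries, a ratio of 94 (exact 95% counting interval 31.8 to 459). Its normalized counts were 1 and 2 against 67 and 196 (-5.56 ± 1.03), and the interval covers counting error only. KLK8 was not called (-3.69, adjusted p = 0.068). The inhibitors SPINK6 and PI3 moved the same way. Both are already counted among the 12 called falls of the cornified envelope list, and PI3 is also on the antimicrobial list. SPINK6, an inhibitor of kallikreins, was at 3 and 10 in stiff col and at 158 and 597 in stiff IPN (-5.54 ± 0.54, adjusted p = 0.00671). PI3, which encodes the elastase inhibitor elafin, was at 46 and 244 against 2616 and 3577 (-4.83 ± 0.43, adjusted p = 0.00564). For each of these genes every stiff IPN library exceeded both stiff col libraries.

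Among keratins, some of the forms induced in stressed and healing epithelium were lower in stiff col. Of 5 stress keratins tested, KRT6B, KRT16 and KRT17 were called lower, 2 were not called, and the median was -2.57. KRT6B had 52 and 391 in stiff col and 616 and 3456 in stiff IPN. KRT17 had 3049 and 13097 in stiff col and 19555 and 71907 in stiff IPN. Both were several-fold higher in replicate 2 of each gel. The difference between gels was nonetheless similar in the trials, at -3.54 and -3.14 for KRT6B (-3.34 ± 0.19, adjusted p = 0.00157) and -2.68 and -2.46 for KRT17 (-2.57 ± 0.18, adjusted p = 0.00333). KRT6B had the lowest adjusted p of all genes tested. KRT16 fell by 2.61 (197 and 382 against 1128 and 2502). KRT6A (-0.64, adjusted p = 0.088) and KRT6C (0.06) were not called, and their near identity to KRT6B limits the separation of reads. KRT14 had 839 and 4034 in stiff col and 3555 and 7848 in stiff IPN, which overlap. Its difference was -1.52 and became -0.99 when stiff IPN replicate 1 was left out. KRT5 was not called (-0.86, adjusted p = 0.052).

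**Figure D3:**
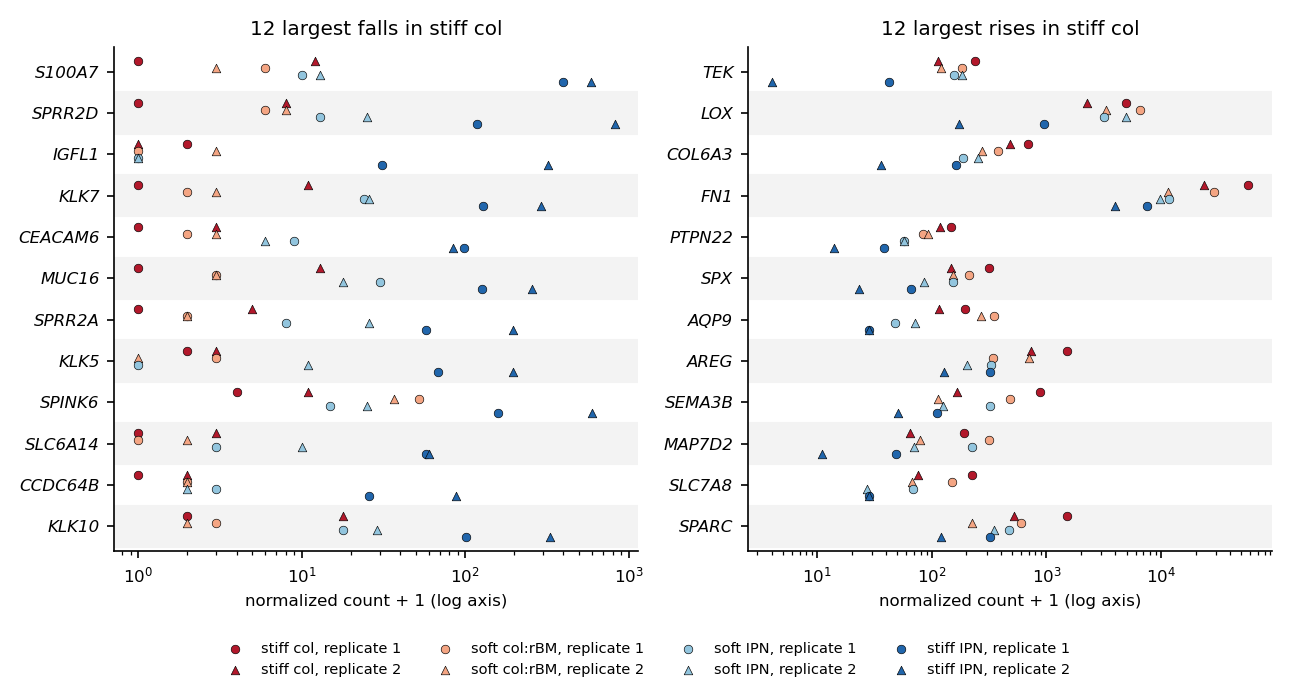
Normalized count + 1 (log axis) of the 12 largest falls and 12 largest rises in all 8 libraries, with 1 color per gel, circles for replicate 1 and triangles for replicate 2. In the left panel the stiff IPN libraries lie to the right of all others, for example S100A7 at 395 and 586 against 0 and 11 in stiff col, and in the right panel stiff IPN lies to the left of stiff col, for example FN1 at 7577 and 3936 against 57569 and 23828.

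Some genes of innate defence were lower in stiff col as well. Of 34 antimicrobial, chemokine and interleukin genes tested, 10 were called lower and 1 higher (1.50% and 1.03% of all genes tested), and 23 were not called. The differences of 21 were below 0 and those of 13 above it. The median was -0.85, and -0.47 without stiff IPN replicate 2. LCN2, which encodes a protein that sequesters bacterial iron carriers, had 18 and 23 in stiff col and 258 and 441 in stiff IPN (-3.99 ± 0.37, adjusted p = 0.00564). IL1RN, the antagonist of the interleukin receptor that senses IL1A and IL1B, had 16 and 85 against 204 and 347 (-2.80 ± 0.41, adjusted p = 0.0204). SAA2, an acute phase protein with the near copy SAA1, had 66 and 98 against 341 and 586 (-2.46). In all 3 genes the gels did not overlap. The exception in the list was TLR2, a receptor for bacterial lipoproteins, which had 486 and 138 in stiff col and 164 and 80 in stiff IPN. It was higher in stiff col within each trial (1.17, adjusted p = 0.0473) with overlapping libraries.

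Of 13 S100 genes, which encode small calcium-binding proteins, 5 were called lower and 0 higher (1.50% and 1.03% of all genes tested). S100A7 (psoriasin) was at 0 and 11 in stiff col and at 395 and 586 in stiff IPN, which was the largest fall among the called genes (-7.12 ± 0.91, adjusted p = 0.0138). S100A8 and S100A9 form calprotectin. S100A8 had 629 and 964 against 2109 and 3930, and S100A9 had 1876 and 1733 against 4303 and 5671. These partners fell by similar amounts, 1.89 ± 0.16 (adjusted p = 0.00526) and 1.45 ± 0.16 (adjusted p = 0.00792), and were abundant in both gels. S100P fell by 1.52 and S100A3 by 1.68. The other 8 members were not called, and the median of the list was -0.33.

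Interferon-stimulated genes were lower in stiff col, with 9 of 36 called lower and 0 higher (1.50% and 1.03% of all genes tested), and 34 below 0. Their median was -0.89, at -0.62 in trial 1 and -1.28 in trial 2. IFI27 had the largest fall of the list. It was at 11 and 7 in stiff col and at 123 and 671 in stiff IPN (-4.88 ± 0.66, adjusted p = 0.0154). OAS1, a sensor of double-stranded RNA, was at 51 and 100 against 217 and 370 (-1.97 ± 0.25, adjusted p = 0.0138). DDX58, which encodes the RNA sensor RIG-I, was at 90 and 144 against 245 and 497 (-1.61). IFIT2, which binds foreign RNA, was at 24 and 33 against 61 and 166 (-1.80). In these 4 genes both stiff col libraries lay below both stiff IPN libraries, and stiff IPN replicate 2 was the highest of the 4.

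Junction genes made up the next group. Of 35 epithelial junction and polarity genes tested, 13 were called lower in stiff col and 0 higher (1.50% and 1.03% of all genes tested). The differences of 29 were below 0 (median -0.83). The tight junction gene CLDN1 (claudin-1, chr3:190023496-190040235, hg19) had 48 and 96 in stiff col and 672 and 2761 in stiff IPN (-4.31 ± 0.38, adjusted p = 0.00564). OCLN (occludin) had 53 and 26 against 273 and 529, a difference of -3.32 ± 0.56 (adjusted p = 0.0287) that became -2.16 without stiff IPN replicate 2. CLDN4 was not called (-4.26, adjusted p = 0.057). The adherens junction gene CDH1, for E-cadherin, was at 1283 and 1823 in stiff col and at 3972 and 5620 in stiff IPN (-1.63 ± 0.18, adjusted p = 0.00792). EPCAM, an epithelial adhesion protein, had 124 and 132 against 408 and 434, with little spread in either gel (-1.71, adjusted p = 0.0287). MAL2, which acts in transport to the apical membrane, fell by 2.44 (456 and 1106 against 3376 and 4404). CEACAM6, an adhesion protein on the cell surface, had 2 estimated reads in the stiff col libraries together and 189 in the stiff IPN libraries, a ratio of 104 (exact 95% counting interval 28.4 to 866). Its normalized counts were 0 and 2 against 98 and 83 (-5.72 ± 0.63), and the interval covers counting error only. Desmosomal genes shifted less, with DSC2 at -0.73, JUP at -0.83 and DSG3 at -0.91, all called. The neural cadherin CDH2 was not called (-0.22).

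Transcription factors of epithelial differentiation went in the same direction, with 7 of 23 called lower and 0 higher (1.50% and 1.03% of all genes tested). The median of the list was -1.02. ELF3, an ETS factor of epithelial cells, had 71 and 22 in stiff col and 544 and 712 in stiff IPN (-3.94 ± 0.60, adjusted p = 0.0219). GRHL3, a Grainyhead factor of the epidermal barrier, had 21 and 68 against 176 and 231 (-2.38 ± 0.33, adjusted p = 0.0158). HES2 had 66 and 342 against 740 and 1407 (-2.75). POU2F3, a POU-domain factor of epidermis, had 3 estimated reads in stiff col and 58 in stiff IPN, a ratio of 21.3 (exact 95% counting interval 6.94 to 106). Its normalized counts were 1 and 2 against 18 and 41 (-3.53 ± 0.63), and the interval covers counting error only. None of the 4 overlapped between gels. GRHL1 (-1.83) and ESRP2 (-1.43), a splicing regulator kept on the list, were also called.

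**Figure D4:**
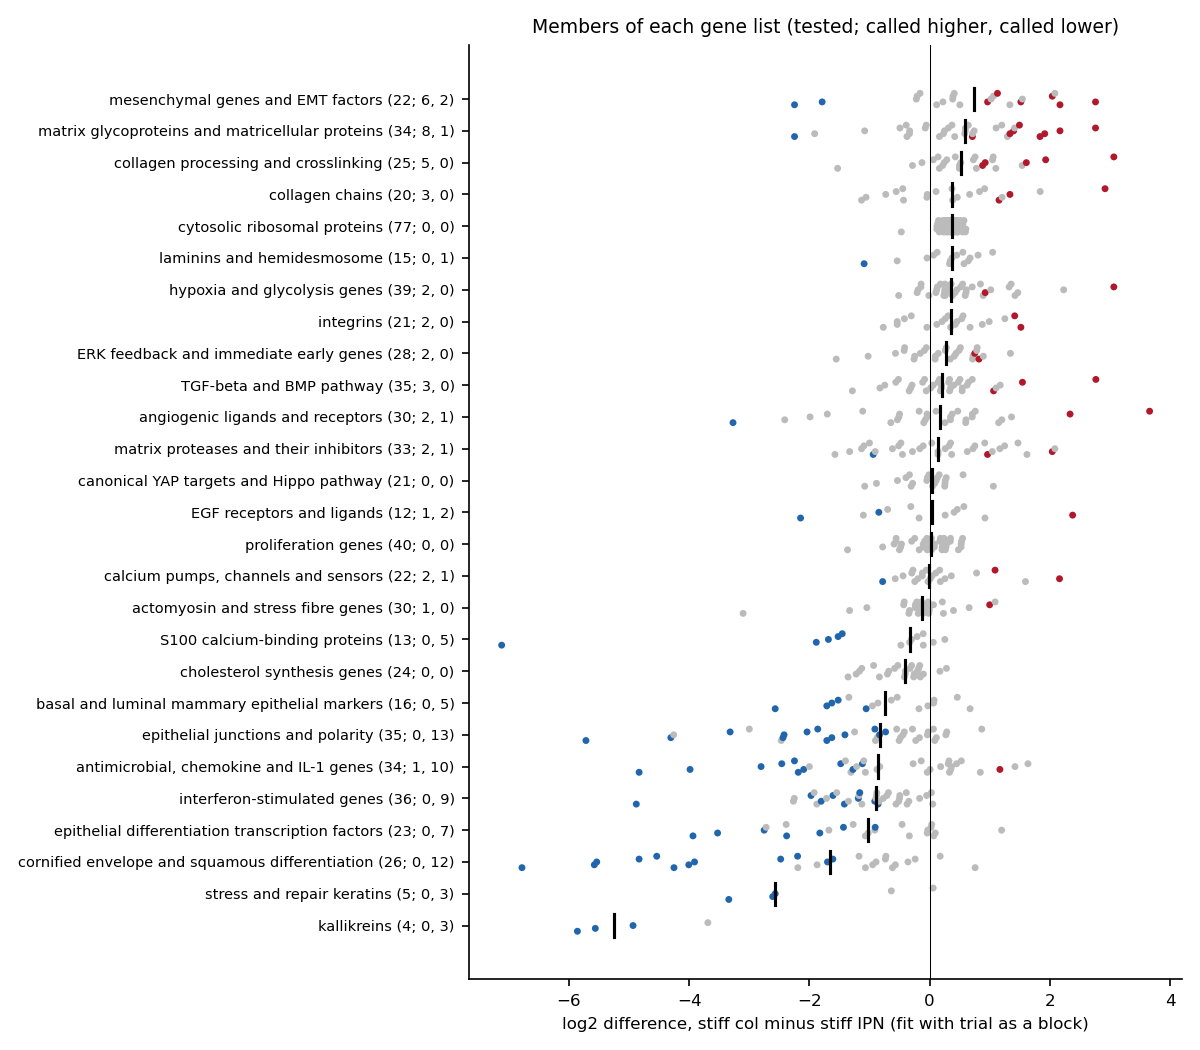
Gene lists are ordered by their median (vertical tick), with the fibroblast, endothelial and leukocyte marker lists left out. Each point is a tested member placed by its log2 difference (stiff col minus stiff IPN), in red where called higher, blue where called lower and grey where not called. Among the lists shown, the kallikrein, stress keratin and cornified envelope lists have the lowest medians (-5.25, -2.57 and -1.65). Only 4 of 15 listed kallikreins were tested, and the whole list summed to 5 in stiff col replicate 1. These 4 passed the filter mainly through stiff IPN. The mesenchymal and matrix glycoprotein lists have the highest of those shown (0.74 and 0.59), and the endothelial marker list, not shown, was at 0.81.

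Among the listed genes that were higher in stiff col were several of the extracellular matrix. Of 34 matrix glycoprotein genes tested, 8 were called higher and 1 lower, 24 were above 0, and the median was 0.59 (0.58 and 0.54 by trial). FN1 encodes fibronectin, which cells assemble into fibrils and bind through integrins. It had 57569 and 23828 in stiff col and 7577 and 3936 in stiff IPN (2.76 ± 0.25, adjusted p = 0.00564). SPARC, a collagen-binding glycoprotein, had 1510 and 517 against 321 and 119 (2.17 ± 0.27, adjusted p = 0.0116). FBN1, the microfibril protein fibrillin-1, had 661 and 258 against 144 and 82 (1.92 ± 0.29, adjusted p = 0.0225). All of these libraries lay apart by gel, and replicate 1 exceeded replicate 2 in each gel. TGFBI, which links collagens and integrins, was steadier between trials at 45896 and 43472 in stiff col and 18760 and 15302 in stiff IPN (1.40 ± 0.15, adjusted p = 0.00792). FBLN5, a protein of elastic fibres, was higher by 1.84, SRPX by 1.50, the proteoglycan SPOCK1 by 1.34 and the TGF-beta binding protein LTBP4 by 0.71. The exception was TNC (tenascin-C), which had 39 and 241 in stiff col and 194 and 1118 in stiff IPN. These values overlap, and TNC was lower in stiff col within each trial (-2.25 ± 0.24, adjusted p = 0.00792).

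Collagen chains of the cells' own were called higher for types IV and VI, with 3 of 20 called and a median of 0.38. COL4A1 and COL4A2 encode the chains of the common type IV collagen of basement membrane. They lie head to head on chromosome 13 (chr13:110801310-110959504 and chr13:110958159-111165556, hg19), with annotations that overlap at the ends, and the strand setting of the counting is not known. COL4A1 had 1286 and 776 in stiff col and 668 and 300 in stiff IPN (1.16 ± 0.18, adjusted p = 0.024). COL4A2 had 2940 and 1506 against 1133 and 611 (1.34 ± 0.21, adjusted p = 0.0241). Both soft gels, which contain rBM, also had higher means than stiff IPN. COL4A1 was at 889 and 565 in soft col:rBM and at 917 and 664 in soft IPN, and COL4A2 at 1854 and 1061 and at 1619 and 1510. COL6A3, a chain of beaded filament collagen, had 688 and 481 against 160 and 35 (2.92 ± 0.50, adjusted p = 0.029). Without stiff IPN replicate 2 its difference was 1.93. Its partner chains COL6A1 (1.21, adjusted p = 0.057) and COL6A2 (1.84, adjusted p = 0.1) were not called, nor was COL1A1 (0.11). Of 15 laminin and hemidesmosome genes, DST alone was called. DST, which encodes the plaque protein dystonin, had 3301 and 5079 against 7671 and 9894 (-1.09 ± 0.15, adjusted p = 0.0165), below the list's median of 0.37.

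Enzymes that modify and crosslink collagen were called higher for 5 of 25 members and lower for 0 (median 0.52). LOX, lysyl oxidase, had 4987 and 2277 in stiff col and 946 and 170 in stiff IPN (3.07 ± 0.56, adjusted p = 0.0364). TGM2, a crosslinking transglutaminase, had 3690 and 854 against 1245 and 173 (1.93 ± 0.31, adjusted p = 0.0263). P4HA1, a collagen prolyl hydroxylase subunit, had 4660 and 1759 against 2404 and 944 (0.93, adjusted p = 0.0185). LOX lay apart by gel whereas TGM2 and P4HA1 overlapped, with replicate 2 far below replicate 1 in both gels. Stiff IPN had the lowest mean of the 4 gels for each. Mean LOX was 3632 in stiff col, 4956 in soft col:rBM, 4078.5 in soft IPN and 558 in stiff IPN. For P4HA1 these means were 3209.5, 3518.5, 4493.5 and 1674, and for TGM2 they were 2272, 2165.5, 1722 and 709. P4HA3 (1.61) and the collagen chaperone FKBP10 (0.88) were also called. Among 21 integrins, ITGA5 and ITGA10 were called higher. ITGA5, the fibronectin receptor chain, had 60270 and 13618 in stiff col and 21889 and 4560 in stiff IPN (1.52 ± 0.31, adjusted p = 0.0473). ITGA10, a chain of a collagen receptor, had 721 and 262 against 295 and 89 (1.42 ± 0.18, adjusted p = 0.0138). Both overlapped between gels and were higher in stiff col within each trial. Mean ITGA5 was 36944 in stiff col, 37435.5 in soft col:rBM, 31871 in soft IPN and 13224.5 in stiff IPN. For ITGA10 these means were 491.5, 344.5, 455 and 192.

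Of 33 matrix proteases and inhibitors, 2 were called higher and 1 lower. The median was 0.14, and -0.02 without stiff IPN replicate 2. MMP2, a gelatinase, had 438 and 219 in stiff col and 84 and 66 in stiff IPN (2.04 ± 0.30, adjusted p = 0.0204). MMP14, the membrane protease that activates pro-MMP2, had 8271 and 6629 against 3950 and 3644 (0.96 ± 0.17, adjusted p = 0.0332). PLAU, urokinase, went the other way with 1913 and 2131 against 3348 and 4474 (-0.94 ± 0.14, adjusted p = 0.0205). These 3 genes lay apart by gel.

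Mesenchymal genes were partly higher, with 6 of 22 called higher, 2 lower and a median of 0.74. Of the 6, FN1, SPARC, MMP2 and ITGA5 are the matrix genes above. SNAI2, which encodes the factor Slug, had 3276 and 2419 in stiff col and 1880 and 879 in stiff IPN (1.13 ± 0.19, adjusted p = 0.0285). VIM (vimentin) had 46195 and 18460 against 22798 and 9804, which overlap (0.97 ± 0.18, adjusted p = 0.04). The called falls of this list were TNC and the adhesion protein L1CAM (-1.79). ZEB2 was not called (1.54, adjusted p = 0.089). FAP, a fibroblast activation marker on another list, was lower in stiff col at 272 and 207 against 712 and 914 (-1.76 ± 0.27, adjusted p = 0.023). Of 30 actomyosin genes only ACTA2, smooth muscle actin, was called (722 and 319 against 377 and 152, overlapping, adjusted p = 0.0424), the list's median was -0.12, and TAGLN was not called (-3.10, adjusted p = 0.074).

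Secreted signals went both ways. Among EGF receptors and ligands, 1 of 12 was called higher and 2 lower. AREG (amphiregulin) had 1511 and 736 in stiff col and 320 and 127 in stiff IPN (2.38 ± 0.48, adjusted p = 0.0473). HBEGF had 97 and 393 against 708 and 1067 (-2.15 ± 0.39, adjusted p = 0.036), and EPGN (epigen) had 822 and 674 against 1188 and 1505 (-0.84, adjusted p = 0.0473). These ligands of the same receptor therefore split by gel, and in each the libraries lay apart. AREG has a near copy in hg19, so its level rests on the reads that mapped to 1 place. Of 28 feedback and immediate early genes downstream of ERK, 2 were called higher, SPRY4 (0.82) and JUNB (0.75), and 0 lower. Of 35 TGF-beta and BMP pathway genes 3 were called higher, all of them ligands, and 0 lower. BMP6 had 662 and 98 in stiff col and 117 and 11 in stiff IPN (2.77 ± 0.36, adjusted p = 0.014). INHBA, the activin A subunit, had 1229 and 228 against 407 and 80 (1.55 ± 0.24, adjusted p = 0.0237). TGFB1 had 3168 and 1275 against 1457 and 632 (1.07 ± 0.18, adjusted p = 0.0266). All 3 overlapped between gels, with replicate 1 far above replicate 2 in each, and the median of the list was 0.20.

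Among 30 angiogenic ligands and receptors, 2 were called higher and 1 lower. The median was 0.18, and -0.0073 without stiff IPN replicate 2. TEK, the angiopoietin receptor, had 235 and 113 in stiff col and 41 and 3 in stiff IPN (3.66 ± 0.71, adjusted p = 0.0429). Its difference was 2.21 without stiff IPN replicate 2. Of the 10 endothelial markers, 4 were tested, TEK included, with 3 above 0 and a median of 0.81. KDR had 163 and 39 in stiff col and 57 and 22 in stiff IPN, ENG had 600 and 616 against 414 and 465, and the defining markers CDH5, VWF and TIE1 were at 7 or below in all 4 stiff libraries. SEMA3B, a secreted semaphorin, had 871 and 165 against 110 and 50 (2.34 ± 0.31, adjusted p = 0.015). FGFBP1, which releases fibroblast growth factors from matrix, had 110 and 420 against 1436 and 3029 (-3.27 ± 0.38, adjusted p = 0.00915).

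Of 22 calcium handling genes 3 were called, 2 higher and 1 lower (1.03% and 1.50% of all genes tested). The stiff IPN was the gel with added calcium, and a link between that calcium and these genes was not tested. ATP2C2, a calcium pump of the secretory pathway, had 83 and 20 in stiff col and 21 and 3 in stiff IPN (2.16 ± 0.41, adjusted p = 0.0395, overlapping). ORAI2, a store-operated channel, was at 433 and 229 against 194 and 112 (1.09), and SLC8B1, the mitochondrial sodium and calcium exchanger, at 313 and 402 against 520 and 716 (-0.78). The median of the list was -0.01.

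The remaining genes with the largest changes belonged to no list. Among the rises were SPX (spexin, a secreted peptide) with 316 and 146 against 65 and 22 (2.47 ± 0.29, adjusted p = 0.00907), and the glycerol and water channel AQP9 with 195 and 114 against 27 and 27 (2.42 ± 0.33, adjusted p = 0.0158). PTPN22, a tyrosine phosphatase, had 145 and 116 against 37 and 13 (2.50). MAP7D2, a microtubule-binding protein, had 191 and 64 against 48 and 10 (2.27). SLC7A8, an amino acid transporter, had 225 and 75 against 27 and 27 (2.23). Among the falls, MUC16, a membrane mucin, had 0 and 12 against 126 and 256 (-5.65 ± 0.92, adjusted p = 0.0266). SLC6A14, an amino acid transporter, had 2 estimated reads in stiff col and 119 in stiff IPN, a ratio of 65.6 (exact 95% counting interval 17.8 to 548). IGFL1 had 1 against 328 reads, a ratio of 361 (64.4 to 1.43e+04), and CCDC64B had 1 against 108, a ratio of 119 (20.9 to 4.74e+03). These intervals cover counting error only. Normalized counts of IGFL1 were 1 and 0 in stiff col and 30 and 322 in stiff IPN. Most of its reads thus came from stiff IPN replicate 2, and its difference of -6.14 became -4.55 without that library. CCDC64B had 0 and 1 against 25 and 87 (-5.08, and -4.27 without stiff IPN replicate 2). SLC6A14 had 0 and 2 against 57 and 59 (-5.09).

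Few or no genes were called in several lists that often separate cultures. Of 40 proliferation genes 0 were called in either direction by limma, 3 had an unadjusted p under 0.05, and the list centred on 0.03 (-0.52 in trial 1 against 0.59 in trial 2). Of 24 cholesterol synthesis genes 0 were called (7 at an unadjusted p under 0.05), and the medians of the trials were 0.14 and -0.98. Hypoxia and glycolysis genes had 2 of 39 called, LOX and P4HA1, with trial medians of -0.07 and 0.76. The sign of these list medians therefore turned with the trial. Of 77 ribosomal protein genes, 76 were above 0 with a median of 0.38, none was called, and 36 had an unadjusted p under 0.05 with the block against 0 without it. Of 21 canonical YAP targets and Hippo pathway genes 0 were called (3 at an unadjusted p under 0.05, median 0.05). CTGF (-1.08), CYR61 (-0.33), YAP1 (0.13), WWTR1 (0.26) and the integrin gene ITGB2 (0.56) were not called. ANKRD1, another canonical YAP target of the paper, was too low to be tested, at 1 and 1 in stiff col and 0 and 12 in stiff IPN. CTGF, CYR61, YAP1 and WWTR1 changed sign without stiff IPN replicate 2, to 0.10, 0.38, -0.25 and -0.16.

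The soft gels place these differences among the 4 matrices. Stiff IPN was the extreme gel for nearly all called genes, with the lowest mean of the 4 gels in 131 of 135 rises (97.0%, against 71.5% of all tested genes with a difference above 0). It had the highest mean in 194 of 196 falls (99.0%, against 68.0% of those with a difference below 0). Stiff col was the opposite extreme less often, in 85 rises (63.0% against 42.5%) and 114 falls (58.2% against 40.5%). The mean of the soft gels lay nearer to stiff col than to stiff IPN in 118 rises (87.4% against 67.2%) and 176 falls (89.8% against 66.6%). A gene called for its distance from stiff IPN is more likely to have stiff IPN as an extreme, so these shares are given as a description. Relative to stiff IPN, the median of the falls was -1.80 in stiff col, -1.55 in soft col:rBM and -1.28 in soft IPN. The corresponding medians of the rises were 1.25, 1.07 and 0.99.

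**Figure D5:**
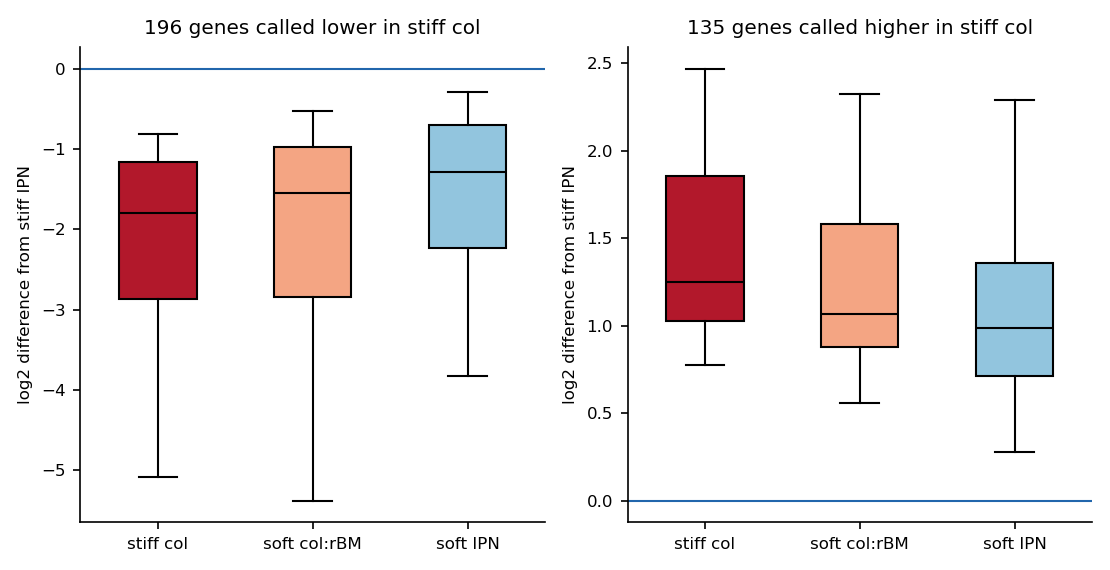
Box plots give the log2 difference of stiff col, soft col:rBM and soft IPN from stiff IPN (line at 0) for the 196 genes called lower in stiff col and the 135 called higher, with quartile boxes, the median as a line and whiskers at the 5th and 95th percentiles. In both panels the soft gels sit on the side of stiff col, with medians of 1.07 and 0.99 for the rises and -1.55 and -1.28 for the falls.

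Individual genes followed this order to different extents. SERPINB2 had 77 and 84 in stiff col, 99 and 102 in soft col:rBM, 78 and 98 in soft IPN and 354 and 995 in stiff IPN, so that stiff IPN stood alone. MUC1 had 321 and 736 in stiff col and 520 and 582 in soft col:rBM, but 1998 and 2608 in soft IPN and 1700 and 3909 in stiff IPN, so that it separated the alginate gels from the col-1 gels. EPCAM had 188 and 102 in soft col:rBM and 314 and 181 in soft IPN. The means of both soft gels lay between those of the stiff gels, although soft col:rBM replicate 2 lay below both stiff col libraries. FKBP10 had 2676 and 1382 in stiff col, 2367 and 1615 in soft col:rBM and 2510 and 2068 in soft IPN, while stiff IPN was low at 1359 and 800. SERPINB2, MUC1 and FKBP10 were chosen as illustrations after their values were seen, and the gels were not tested against each other here.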

How the data were processed

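The authors trimmed reads, aligned them to hg19, kept reads that mapped well and to 1 place only, and counted them per gene with HTSeq. The submitters' processing notes name Trim Galore 0.3.3, TopHat2 2.0.13, SAMtools 1.1, DESeq2 and R 3.2.0, whereas the paper names Bowtie2 as the aligner. The annotation and strand setting are not given in the sources used here. The deposited values are whole-number scores, that is counts the authors divided by 1 size factor per library and rounded, and are called normalized counts. They are not reads, so no count model was fitted. Reads per library, between 13065615 and 18587739 in the stiff gels, were estimated from the steps in the values, and 3 reads was taken as the limit of detection.

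Genes at 10 or more in at least 2 of the 4 stiff libraries were kept. Values were taken as log2(value + 1) and fitted with limma 3.58.1 (R 4.3.3, statmod 1.5.0) over all 8 libraries, with a mean per gel, the trial as a block (3 residual degrees of freedom), a trend and robust moderation. Adjustment was by Benjamini-Hochberg across the 13073 genes, and a gene was called at 0.05. Errors are moderated SE with n = 2 libraries per gel. The replicate numbers stand for independent trials in the paper, and across the 6 pairs of gels the differences between replicates 2 and 1 correlated over genes with r between 0.28 and 0.83 (0.41 for the stiff gels). Whether the libraries of a trial came from separate cultures is known only from the paper's description.

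Genes named were the 12 largest rises and falls with libraries apart, up to 4 called members of each of 30 gene lists with the largest change, the genes the study names, and partners given by value. A few other called members of a list were given by value too. The comparison, lists and rule were chosen with earlier results of these data known. Of the 25369 symbols, 28 had become dates (19 tested, 0 called), and 23010 (90.7%) had a position in GENCODE lifted to hg19. Alternatives are listed in the closing section. The fit was run on 5 simulated sets with 200 changed genes each. With the block it recovered 73.0% of log2 changes of 1 and 97.2% of changes of 2, with a mean of 8.2 false calls. Without the block it recovered 0.8% and 44.0%, with 0 false calls. The simulation gave all gels the same trial shift, as the block assumes. It therefore cannot show how the block performs on these data, where the shifts correlated with r between 0.28 and 0.83. Python 3.11.15 with numpy 2.4.6, pandas 2.3.3, scipy 1.17.1 and matplotlib 3.10.9 was used elsewhere.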

Additional observations from a re-analysis of the deposited data

How the results depend on the processing

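The calls depended on the block and on single libraries. The fit with the trial as a replicate block called 331 genes (135 higher and 196 lower in stiff col). No replicate block gave 0 calls, 0 higher and 0 lower, over the 8 libraries and again over the 4 stiff libraries alone, with lowest adjusted p values of 0.12 and 0.109 by limma and 834 and 689 genes at an unadjusted p under 0.05. Of 80 named genes, 75 lost their call without it and the other 5 were uncalled in either fit. Leaving out 1 stiff library gave between 36 and 2200 calls, between 1 and 1210 higher and between 35 and 990 lower. The lone library of a gel was then assumed to vary like the others. A value of 10 or more in each stiff library left 126 genes called lower. The other settings (median-of-ratios or upper-quartile rescaling, a pseudocount of 0.5 or 5, no filter, moderation that was not robust, the 4 stiff libraries with the block) gave between 291 and 432 calls. With the 4 stiff libraries alone and the block, 217 of the 331 genes were still called and 10 named genes were not. All 331 differences kept their sign in every setting in which the gene was tested. Upper-quartile rescaling shifted the median of all genes to -0.04.

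Signs turned only among uncalled genes. Over the fits that left out 1 library, CTGF lay between -2.26 and 0.10, CYR61 between -1.05 and 0.38, YAP1 between -0.25 and 0.51 and WWTR1 between -0.16 and 0.68. All 4 turned without stiff IPN replicate 2, and YAP1 was also at -0.04 without stiff col replicate 2. Without stiff IPN replicate 2, the medians of 7 lists changed sign, those of the proliferation (-0.49), EGF (-0.18), hypoxia (-0.16), YAP (-0.12), matrix protease (-0.02), angiogenic (-0.0073) and cholesterol (0.05) lists. Without stiff col replicate 2 the proliferation (-0.12) and YAP (-0.01) medians did so, and the calcium median turned in every fit except that without stiff IPN replicate 2 (0.01 to 0.13). The cause was not tested. With 2 libraries per gel, the floor of 3 reads, which is between 2.41 and 3.28 normalized counts, limits falls of genes near 0 in stiff col, of which 13 were at or under it in both libraries.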

Other observations

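Some called genes outside the lists are given here by value. They were chosen after their values were seen and stand for no group. The membrane mucin MUC21 had 0 and 0 in stiff col and 20 and 12 in stiff IPN (limma adjusted p = 0.0281), and the mucin MUC1 had 321 and 736 against 1700 and 3909 (-2.40). Among intracellular serpins, SERPINB2 had 77 and 84 against 354 and 995 (-2.87), SERPINB13 had 31 and 211 against 646 and 874 (-3.19), and SERPINB3 had 47 and 87 against 339 and 210 (-2.04). A2ML1, a protease inhibitor of the epidermis, had 2 and 6 against 112 and 157 (-4.87). ANXA1, which encodes annexin A1, was abundant in both gels at 8412 and 7718 against 15151 and 17420 (-1.01). In all of these genes both stiff col libraries lay below both stiff IPN libraries.

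A list of 25 genes for the COPII coat and exit from the endoplasmic reticulum, the route by which procollagen leaves it, was written after the values were seen and therefore has no test. Of 23 tested, 5 were called higher in stiff col, 0 lower, and 22 were above 0, with a median of 0.43 (0.50 in trial 1 and 0.12 in trial 2). The called members were SEC24D (1.09), SEC23A (1.01), LMAN1 (0.96), SEC24A (0.82) and YIPF5 (0.75), and only the libraries of YIPF5 lay apart by gel.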
